A study of Camelina sativa with 12 samples.

Results

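The rolD::acdS line of the oilseed crop Camelina sativa carries the acdS gene of Pseudomonas sp. UW4, which encodes ACC deaminase, behind the rolD promoter of Agrobacterium rhizogenes. Its shoots under salt were compared with those of the parental line DH55 under the same salt. The comparison rested on 3 rolD::acdS and 3 control (DH55) shoot RNA libraries, and on the 56932 of 89418 genes in the count table that reached 0.5 CPM (a gene's counts scaled by the total of its library) in at least 3 of all 12 libraries. The other 6 libraries came from a 35S::acdS line and from DH55 grown in soil treated with the bacterium Pseudomonas migulae 8R6. The control and 8R6-treated plants were DH55, and the methods of the study give DH55 as the background of both acdS lines. All 12 libraries came from 28-day-old plants after 21 days of NaCl (192 mM, 15 dS per m), as the labels give them. Every value below is thus a level under salt. The general growth methods of the study put the start of salt later after sowing than the labels do, and this difference was not resolved. Unsalted libraries were not analysed here, and a gene that was less induced by salt cannot be told apart from one lowered below its unsalted level. The line is a single insert line, so the effect of the transgene cannot be told apart from other differences of that line, and the rolD promoter is best known for its activity in roots. The transcript of acdS itself was not analysed here, since the count table lists only Camelina genes.

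ACC (aminocyclopropane carboxylate) is the immediate precursor of the gaseous hormone ethylene. ACC synthases make it from S-adenosylmethionine, ACC oxidases turn it into ethylene, and ACC deaminase breaks it down instead. Plants commonly make more ethylene under salt and other stresses, and ethylene acts through ethylene response factors (ERFs) on defence, ageing and the cell wall. The study, however, measured lower ethylene levels in vegetative tissue of all its lines after days of salt. Camelina is an allohexaploid, so that most genes occur as homeologues on the sub-genomes. Gene names and roles below are those of the Arabidopsis thaliana orthologs that the study assigned, and reads of near-identical homeologues may have been shared among them, so the values of single homeologues are uncertain.

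The rolD::acdS libraries held 23267552, 10748399 and 10520627 counts, against 15004403, 15827627 and 23587748 counts in the control, and values are given throughout in the order of replicates 1, 2 and 3. Of the 12 libraries, 5 stood apart from the rest in a run of neighbouring genes on chromosome 4 (Csa04g058080 to Csa04g068180). These were control replicates 2 and 3 and the 3 libraries of 8R6-treated plants, and all rolD::acdS libraries lay with the remaining ones. The values of that run are given at the end, and the results that rest on it are also given without it. All 4 photosynthesis genes taken as markers of shoot tissue were detected in all 6 libraries of the comparison. In tissue samples such as these, fewer cells of a type and less RNA per cell cannot be told apart.

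No gene passed the threshold between the rolD::acdS line and the control (adjusted p of 0.05 or less and more than 2-fold, edgeR quasi-likelihood test, 0% of the genes tested). The smallest adjusted p was 0.103, shared by 13 genes, and 4755 genes (8.35%) had an unadjusted p under 0.05. DESeq2 called 164 genes, of which 151 were lower in the rolD::acdS line, limma called 1, and edgeR's exact test with dispersions estimated for each gene called 379. The differences at an unadjusted p under 0.05 ran mostly downward once they were large. Of these genes, 2884 (5.07%) were lower and 1871 (3.29%) higher in the rolD::acdS line, but among those that differed more than 2-fold 1064 (1.87%) were lower and 236 (0.415%) higher. The median log2 fold change was -0.78 among the 2884 lower and 0.50 among the 1871 higher genes. Over all genes tested it was 0.0076, and 48.7% of the genes lay below 0. The more than 2-fold lower genes had low levels, with medians of the group means of 0.615 CPM in the rolD::acdS line and 2.32 CPM in the control. In 862 of these 1064 genes the 3 rolD::acdS libraries all lay below the 3 control libraries. The genes were chosen from these same libraries, which largely fixes that count. Of all genes tested, 7.23% had all 3 rolD::acdS libraries below the control. In the other direction, 6.43% of all genes tested had all 3 rolD::acdS libraries above the control.

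**Figure D1:**
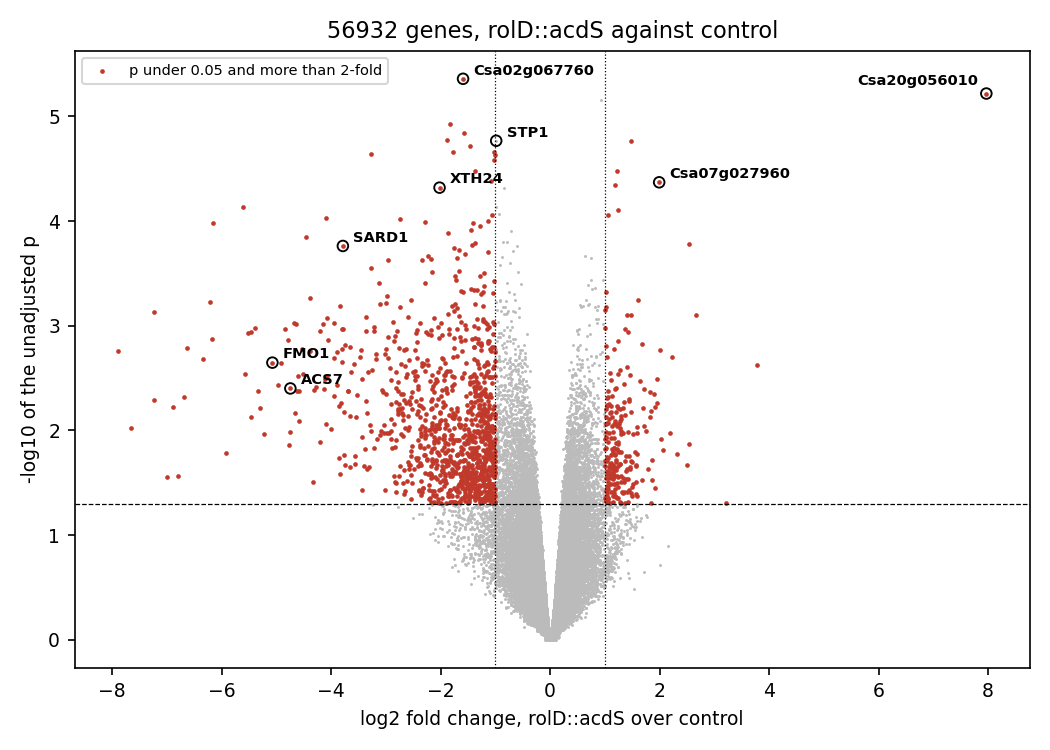
Each point is 1 of the 56932 genes tested. The x axis gives the log2 fold change of the rolD::acdS line over the control, the y axis the -log10 of the unadjusted p (edgeR quasi-likelihood). Red points pass an unadjusted p under 0.05 and a 2-fold difference, and 1064 of them lie on the lower and 236 on the higher side. The dashed line marks the unadjusted threshold, the dotted lines a 2-fold difference, and the circled genes are named in the text. The points of genes with 0 to 3 counts in a group depend on the fit's prior count.

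The genes with the smallest p combined small differences between replicates with folds near 2 to 4, apart from Csa20g056010. Their adjusted p was 0.103 in each case. Csa02g067760 and Csa11g094660, homeologues of a heavy metal transport/detoxification family gene, led the lower ones. Csa02g067760 had 15, 14.4 and 20.4 CPM in the rolD::acdS line, against 40.7, 49.8 and 58.7 CPM in the control (log2 fold change -1.59 ± 0.20 (SE), adjusted p = 0.103). Csa11g094660 had 6.03, 3.74 and 4.92 CPM in the rolD::acdS line, against 13.1, 18.6 and 23.1 CPM in the control (-1.88 ± 0.28, SE). No rolD::acdS library reached the lowest control library for either homeologue. A pair of genes of the methylenetetrahydrofolate reductase family followed, an enzyme family of folate metabolism. Csa06g013010 had 2.57, 2.46 and 2.85 CPM in the rolD::acdS line, against 6.44, 9.41 and 11.9 CPM in the control, and Csa00478s010 had 2.27, 2.46 and 1.87 CPM in the rolD::acdS line, against 4.74, 7.26 and 10.6 CPM in the control. In both genes control replicate 3 was the highest library and the rolD::acdS libraries lay close together, with log2 fold changes of -1.83 ± 0.26 and -1.78 ± 0.27 (SE). The other lower genes were Csa11g070410, a CCCH-type zinc finger gene (-1.58 ± 0.23), Csa02g053330, a ribosomal protein L6 family gene (-1.47 ± 0.22), and Csa03g014900, a homeologue of the sugar transporter gene STP1. Of the 10, 3 were higher in the rolD::acdS line, and none of the 3 has a name in the sources used here. Csa16g041690 had 18.2, 20.5 and 19.5 CPM in the rolD::acdS line, against 10.4, 9.09 and 10.8 CPM in the control (0.94 ± 0.13), and Csa15g026400 had 5.99, 6.84 and 5.71 CPM in the rolD::acdS line, against 2.57, 1.89 and 2.2 CPM in the control (1.47 ± 0.22). The third was Csa20g056010, which had 1.63, 2.01 and 1.87 CPM in the rolD::acdS line and no count in the control.

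STP1, which encodes a proton-coupled monosaccharide transporter of the plasma membrane, was lower in all 3 homeologues. Csa03g014900 had 12.5, 10.7 and 9.65 CPM in the rolD::acdS line, against 20.5, 20.6 and 24.2 CPM in the control. Csa14g014020 had 11.8, 7.76 and 8.37 CPM in the rolD::acdS line, against 17.3, 20.2 and 19.6 CPM in the control, and Csa17g015290 had 10.2, 6.57 and 6.99 CPM in the rolD::acdS line, against 14.6, 19.5 and 16.1 CPM in the control. Every rolD::acdS library lay below every control library in each homeologue, and the log2 fold changes were -0.98 ± 0.15, -1.01 ± 0.15 and -1.05 ± 0.18 (SE), with adjusted p of 0.103, 0.103 and 0.18. Without rolD::acdS replicate 1, 5 genes passed the threshold, and the STP1 homeologue Csa14g014020 was among them (log2 fold change -1.24, adjusted p = 0.0415). The other 4 were Csa05g090010 (a pfkB-like carbohydrate kinase gene, -2.32, adjusted p = 0.0155), Csa14g014950 (-1.57, adjusted p = 0.0415), Csa17g016270 (-1.88, adjusted p = 0.0422) and Csa19g016930 (a DNA glycosylase family gene, -1.25, adjusted p = 0.0422). In all 5, rolD::acdS replicate 1 was the highest of its group. It was 8.90 CPM for Csa05g090010, against 1.82 and 2.36 CPM in the other 2 rolD::acdS libraries. Leaving out any other library of the comparison gave no call.

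The lower genes with the largest fitted differences were at or near 0 counts in the rolD::acdS line. No count was found in any of its 3 libraries for 4 genes, so that only bounds can be given, from a floor of 3 counts over the group. Csa09g078100, an HCP-like superfamily gene, was at least 28.2-fold lower than in the control (1.15, 0.568 and 3.24 CPM). Csa17g026200, which encodes the TIM17-1 subunit of the protein import complex of the inner mitochondrial membrane, was at least 24.4-fold lower (0.474, 0.568 and 3.07 CPM in the control). The unnamed genes Csa08g018330 and Csa12g040740 were at least 17.4-fold and 16.3-fold lower. For 4 more the rolD::acdS libraries held 1 or 2 counts together. Csa20g039250, a DUF295 gene, had 2 counts in the rolD::acdS libraries together and 236 in the control libraries, 96.1-fold lower (95% counting interval 26.3 to 798). Csa05g003450, which encodes BON association protein 2, a membrane-binding inhibitor of cell death in A. thaliana, had 1 count in the rolD::acdS libraries together and 121 in the control libraries, 98.5-fold lower (95% counting interval 17.3 to 3922). The AGAMOUS-like 80 homologue Csa01g006800 and the unnamed Csa07g064520 were 54.9-fold lower (95% counting interval 14.9 to 458) and 65.1-fold lower (95% counting interval 11.4 to 2604). These intervals and bounds cover counting error only. Csa14g014980, annotated only as a predicted protein, had 0.0855, 0 and 0.197 CPM in the rolD::acdS line, against 4.0, 4.55 and 5.57 CPM in the control (log2 fold change -5.60 ± 0.96 (SE), adjusted p = 0.18). Csa17g014770, a Core-2/I-branching enzyme gene, had 0.0855, 0 and 0.197 CPM in the rolD::acdS line, against 3.05, 2.34 and 7.77 CPM in the control (log2 fold change -5.53 ± 1.32 (SE), adjusted p = 0.332).

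The 10 largest differences on the higher side were smaller, apart from Csa20g056010. This gene had 1.63, 2.01 and 1.87 CPM in the rolD::acdS line, 79 counts in all. It had no count in the control or in the 35S::acdS line, and 0, 0 and 0.0487 CPM in the 8R6-treated plants. It was at least 32.3-fold higher than in the control, and limma (adjusted p = 0.000533), DESeq2 and both exact tests called it. Csa12g014370, a gene of the B3 transcription factor family, had 0.941, 2.28 and 1.08 CPM in the rolD::acdS line, against 0.203, 0.189 and 0.291 CPM in the control (log2 fold change 2.53 ± 0.48 (SE), adjusted p = 0.221). Csa06g010010, a cytochrome P450 gene, had 3.42, 5.93 and 5.91 CPM in the rolD::acdS line, against 1.35, 1.26 and 1.12 CPM in the control (log2 fold change 2.01 ± 0.50 (SE), adjusted p = 0.346). Csa07g027960, annotated as related to ubiquitin carboxyl-terminal hydrolases, had 4.71, 5.57 and 6.5 CPM in the rolD::acdS line, against 1.49, 1.7 and 1.04 CPM in the control (log2 fold change 1.99 ± 0.32 (SE), adjusted p = 0.13). The 10 genes were chosen only among those in which the lowest rolD::acdS library exceeded the highest control library, so the lack of overlap is not a result. Csa15g014920, an oxygenase of the 2-oxoglutarate and Fe(II)-dependent superfamily, had 0.855, 4.74 and 1.18 CPM in the rolD::acdS line, against 0.61, 0.189 and 0.582 CPM in the control, and rolD::acdS replicate 2 alone stood far above the others. Csa09g071530, Csa07g017670 and Csa16g055760 are unnamed, with log2 fold changes of 3.78 ± 0.99, 2.66 ± 0.60 and 1.76 ± 0.58 (SE). The remaining pair, Csa04g058130 and Csa04g061250, lies in the chromosome 4 run. Csa04g058130 had 66.7, 108 and 80.6 CPM in the rolD::acdS line, against 38, 1.7 and 28 CPM in the control, and Csa04g061250 had 0.984, 0.912 and 1.97 CPM in the rolD::acdS line, against 0.542, 0 and 0.457 CPM in the control. Control replicate 2 was far below the other control libraries in the first of these and had no count in the second.

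All 7 genes of ethylene synthesis that the lists held were lower in the rolD::acdS line, each with an unadjusted p under 0.05 and each with no overlap between the groups. The study drew these genes and most members of the lists below from these same libraries for their difference from the control, so the counts are a description and not independent evidence of a direction. The share of all genes tested that was lower at an unadjusted p under 0.05 was 5.07%. ACS7, an ACC synthase gene, had 3 homeologues, all at or close to 0 in the rolD::acdS line. Csa12g025860 had 0.0855, 0.0912 and 0.394 CPM in the rolD::acdS line, against 3.12, 1.45 and 6.86 CPM in the control (log2 fold change -4.53 ± 1.13 (SE), adjusted p = 0.346). Csa11g018190 had 0.128, 0 and 0.295 CPM in the rolD::acdS line, against 1.63, 1.64 and 3.7 CPM in the control (log2 fold change -4.06 ± 0.99 (SE), adjusted p = 0.338). Csa10g016710 had 0.128, 0 and 0 CPM in the rolD::acdS line, against 1.29, 1.26 and 3.12 CPM in the control, which with 3 counts in the rolD::acdS line is 30.9-fold lower (95% counting interval 10.3 to 152). Control replicate 3 was the highest library for each ACS7 homeologue. ACS2, a second ACC synthase gene, was present at a few CPM. Csa17g001950 had 3.17, 0.912 and 1.77 CPM in the rolD::acdS line, against 10.1, 4.74 and 15.7 CPM in the control (log2 fold change -2.28 ± 0.72 (SE), adjusted p = 0.439). Csa03g001750 had 5.73, 0.912 and 2.46 CPM in the rolD::acdS line, against 10.2, 9.66 and 24.6 CPM in the control (log2 fold change -2.17 ± 0.78 (SE), adjusted p = 0.485). Replicate 1 was the highest rolD::acdS library in both ACS2 homeologues and still lay below every control library. ACO4, an ACC oxidase gene, was the most abundant of the group and differed least. Csa14g006260 averaged 33.8 ± 5.01 CPM in the rolD::acdS line and 66.9 ± 8.44 CPM in the control (SD, n = 3 each). Csa17g008270 averaged 23 ± 1.68 CPM in the rolD::acdS line and 49.6 ± 6.22 CPM in the control (SD, n = 3 each). Their log2 fold changes were -0.98 ± 0.30 and -1.11 ± 0.34 (SE), with adjusted p of 0.424 and 0.425. Summed over the 7 genes, the level was 71.8, 54.6 and 60.2 CPM in the rolD::acdS libraries, against 157, 128 and 165 CPM in the control libraries.

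**Figure D2:**
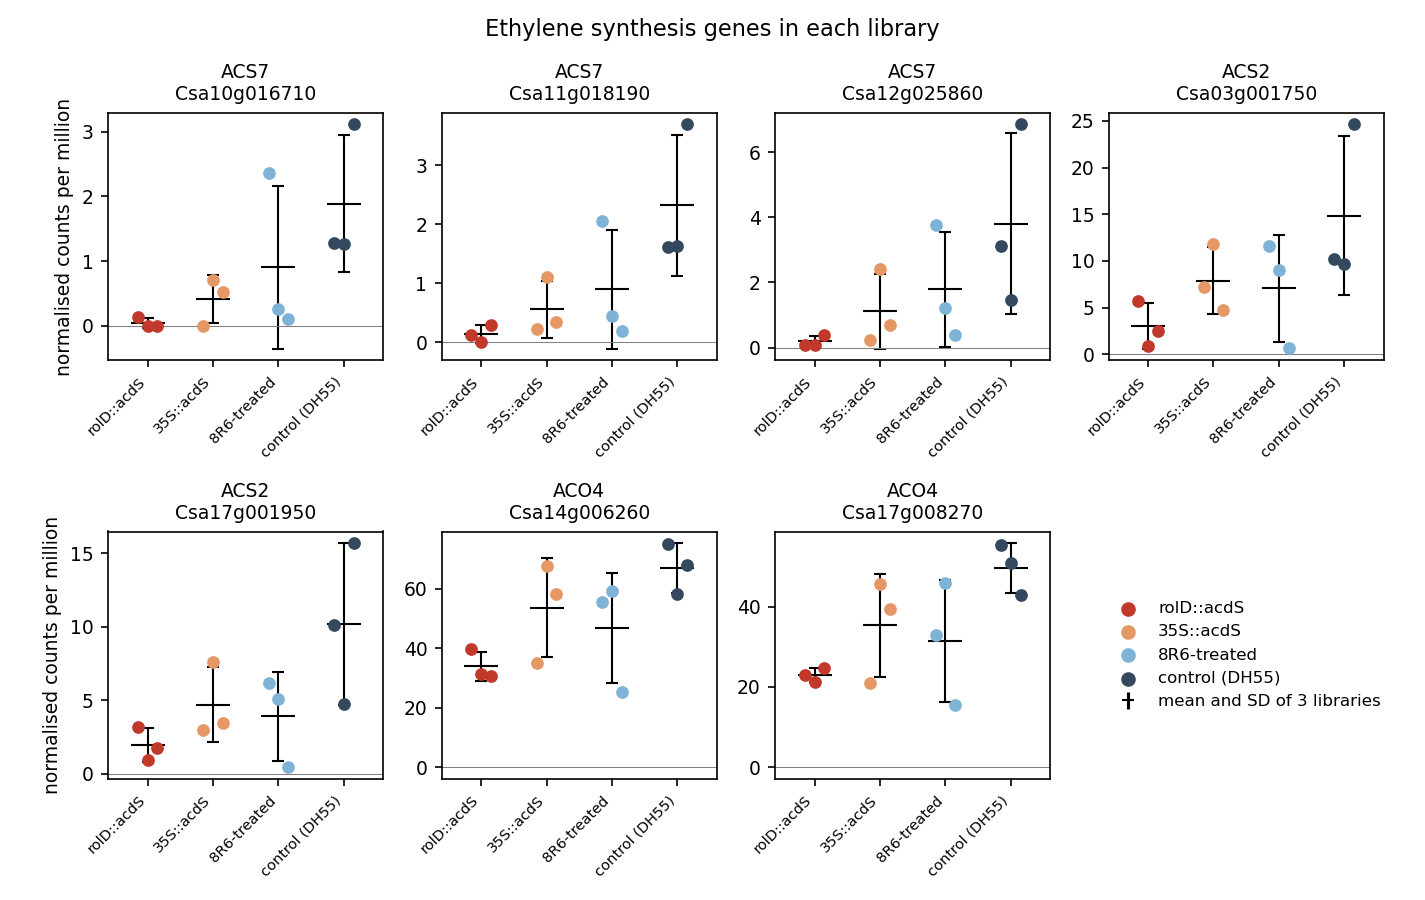
Normalised level (CPM) of the 7 ethylene synthesis genes in each of the 12 libraries, 1 panel a gene, with a linear axis. Points are libraries in the order of replicates 1 to 3, the bars are the mean and SD of 3 libraries. In every panel the 3 rolD::acdS points lie below the 3 control points.

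Of the 17 ERF genes tested, 15 had lower values in the rolD::acdS line, 13 of 17 at an unadjusted p under 0.05, and the median log2 fold change was -1.14. ERF1, an activator that acts directly below the ethylene signal, had in Csa19g033660 1.24, 0.274 and 0.886 CPM in the rolD::acdS line, against 2.51, 1.58 and 5.48 CPM in the control (log2 fold change -1.91 ± 0.54 (SE), adjusted p = 0.395). ERF2 activates genes through the GCC box and had 3 homeologues (Csa18g002590, Csa20g081680 and Csa11g064550) with log2 fold changes of -2.74 ± 0.83, -2.41 ± 0.68 and -1.66 ± 0.52 (SE). The widest difference was that of Csa18g002590, at 0.128, 0.182 and 0.197 CPM in the rolD::acdS line, against 1.69, 0.568 and 1.08 CPM in the control. ERF1A, a further activator, had 2 homeologues. Csa10g027890 had 2.87, 1.46 and 2.46 CPM in the rolD::acdS line, against 6.5, 3.73 and 8.06 CPM in the control (log2 fold change -1.40 ± 0.35 (SE), adjusted p = 0.346), and Csa12g047140 had a log2 fold change of -1.51 ± 0.45 (SE). ERF11, a repressor (Csa03g031680 and Csa17g039230), was at -1.14 ± 0.33 and -0.96 ± 0.33 (SE), and the libraries of Csa17g039230 overlapped. The 2 genes on the higher side were homeologues of RAP2.6, a stress-responsive ERF, with log2 fold changes of 0.61 and 0.70 and an unadjusted p above 0.05. The summed level of the list overlapped between the groups, at 194, 187 and 102 CPM in the rolD::acdS libraries, against 218, 141 and 188 CPM in the control libraries.

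Genes for salicylate and pipecolate, the signals of systemic acquired resistance, formed the list with the lowest median. All 20 tested members had lower values, 18 of 20 at an unadjusted p under 0.05 and 19 of 20 with no overlap, and the median log2 fold change was -2.35. ICS1, which makes the isochorismate that salicylate is formed from, had 2 homeologues. Csa09g079290 had 3.98, 3.28 and 2.85 CPM in the rolD::acdS line, against 7.11, 8.71 and 6.9 CPM in the control, and Csa07g046140 had 3.25, 2.65 and 2.66 CPM in the rolD::acdS line, against 6.03, 11.1 and 6.19 CPM in the control. The log2 fold changes were -1.14 ± 0.20 and -1.41 ± 0.25 (SE), both with an adjusted p of 0.18. EDS5, the transporter that carries the intermediate out of the chloroplast, was steady within each group. Csa11g001970 had 0.941, 1.19 and 0.689 CPM in the rolD::acdS line, against 6.23, 5.87 and 6.03 CPM in the control (log2 fold change -2.67 ± 0.67 (SE), adjusted p = 0.346), and Csa10g001780 had 0.642, 0.73 and 0.492 CPM in the rolD::acdS line, against 2.98, 3.28 and 2.99 CPM in the control (log2 fold change -2.29 ± 0.47 (SE), adjusted p = 0.301). With only the 6 libraries compared in the fit, Csa11g001970 was 1 of 3 genes that passed the threshold (adjusted p = 0.0198). PBS3 (Csa08g005200), which couples glutamate to isochorismate, had 9.84, 6.11 and 11 CPM in the rolD::acdS line, against 15.6, 20.0 and 17.1 CPM in the control (log2 fold change -0.96 ± 0.25 (SE), adjusted p = 0.365).

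SARD1 and CBP60g encode the calmodulin-binding protein family factors that switch on ICS1 in A. thaliana. The SARD1 homeologue Csa16g036620 had 0.299, 0.182 and 0.197 CPM in the rolD::acdS line, against 2.3, 4.42 and 3.57 CPM in the control (log2 fold change -3.78 ± 0.71 (SE), adjusted p = 0.221), and Csa09g078360 had 1.71, 1.19 and 0.787 CPM in the rolD::acdS line, against 6.3, 9.79 and 8.31 CPM in the control (log2 fold change -2.63 ± 0.66 (SE), adjusted p = 0.346). The CBP60g homeologues Csa13g034850 and Csa08g027670 had log2 fold changes of -2.47 ± 0.66 and -1.77 ± 0.45 (SE). The groups overlapped in none of these 4 genes. ALD1 (Csa01g036180), the first enzyme of pipecolate synthesis, had 0.299, 0 and 0.0984 CPM in the rolD::acdS line, against 1.22, 2.34 and 1.08 CPM in the control (log2 fold change -3.11 ± 1.04 (SE), adjusted p = 0.453). FMO1 hydroxylates pipecolate into the mobile signal. Its homeologue Csa17g025050 had 0, 0 and 0.394 CPM in the rolD::acdS line, against 4.4, 2.21 and 3.53 CPM in the control (log2 fold change -5.07 ± 1.32 (SE), adjusted p = 0.365), and Csa03g023070 had 2 and 31 counts in the rolD::acdS and control libraries together, 12.6-fold lower (95% counting interval 3.21 to 109). Another FMO1 homeologue, Csa14g024590, did not reach the level needed for a test, with 0, 0 and 2 counts in the rolD::acdS line and 8, 4 and 9 in the control. The summed level of the salicylate and pipecolate list was 47.6, 44.8 and 46.2 CPM in the rolD::acdS libraries, against 127, 172 and 129 CPM in the control libraries.

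The pathogenesis-related (PR) proteins and chitinases, outputs of that defence pathway, were lower in all 15 genes tested and in 11 of 15 at an unadjusted p under 0.05. PR1 had the widest spread. Csa15g064830 had 0.727, 0.456 and 3.25 CPM in the rolD::acdS line, against 13.8, 34.8 and 5.32 CPM in the control (log2 fold change -3.74 ± 1.42 (SE), adjusted p = 0.511), and Csa19g044900 had 0.984, 0.365 and 1.77 CPM in the rolD::acdS line, against 8.87, 30.2 and 3.16 CPM in the control (log2 fold change -3.76 ± 1.37 (SE), adjusted p = 0.488). Control replicate 2 held the highest level of all 3 PR1 homeologues and control replicate 3 the lowest of the control, whereas control replicate 3 was the highest for the ACC synthase genes ACS2 and ACS7. Csa01g035420 followed the same order at a log2 fold change of -3.85 ± 1.42 (SE). PR5, a thaumatin-like protein, had 4 genes in the list. Of these, Csa07g046490 had no assigned A. thaliana ortholog and lies on the same chromosome as Csa07g046470. Csa16g038950 had 11.1, 7.3 and 10.3 CPM in the rolD::acdS line, against 50.9, 39 and 30.4 CPM in the control (log2 fold change -2.05 ± 0.55 (SE), adjusted p = 0.373), and Csa07g046470 had 19.1, 10.5 and 12.1 CPM in the rolD::acdS line, against 51.6, 30.6 and 41.1 CPM in the control (log2 fold change -1.54 ± 0.40 (SE), adjusted p = 0.365). The others, Csa07g046490 and Csa09g079640, had log2 fold changes of -2.43 ± 0.90 and -1.57 ± 0.79 (SE), the last with an unadjusted p of 0.0704. Camalexin is the indole phytoalexin of A. thaliana, and 3 genes of its synthesis were tested. CYP71A13, which makes indole-3-acetonitrile, had 4.45, 2.92 and 1.28 CPM in the rolD::acdS line, against 14, 6.13 and 21 CPM in the control in Csa16g013050 (log2 fold change -2.17 ± 0.86 (SE), adjusted p = 0.527), and its log2 fold change was -3.03 ± 0.97 (SE) in Csa05g031790. The related CYP71A12 (Csa05g031800) had 10.4, 2.83 and 3.35 CPM in the rolD::acdS line, against 24.5, 21.8 and 32.7 CPM in the control (log2 fold change -2.16 ± 0.87 (SE), adjusted p = 0.536). The PAD3 gene Csa06g006620, for the last step, was too low to test, at 2, 1 and 1 counts in the rolD::acdS line and 13, 6 and 9 in the control.

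Receptor kinases and calcium-binding proteins showed the same direction in nearly every member. All 25 cysteine-rich receptor-like kinases, which sit in the plasma membrane, had lower values in the rolD::acdS line, with 23 of 25 at an unadjusted p under 0.05, a median log2 fold change of -2.00 and a range of -4.79 to -0.96. The wall-associated kinases, which bind pectin, were lower in 5 of 5, 4 at an unadjusted p under 0.05, with a median of -1.91. The 27 calcium signalling genes tested include the SARD1 and CBP60g genes described above, which thus count in both lists. Of these 27, 26 had lower values, 23 of 27 at an unadjusted p under 0.05, with a median of -1.68. The 1 on the higher side was the calreticulin family gene Csa20g009740, a calcium-binding chaperone of the endoplasmic reticulum. It had 8.3, 7.48 and 6.3 CPM in the rolD::acdS line, against 3.66, 3.35 and 2.58 CPM in the control (log2 fold change 1.23 ± 0.19 (SE), adjusted p = 0.118), with no overlap. Summed, the receptor kinase list was at 33.1, 23.4 and 24.2 CPM in the rolD::acdS libraries, against 75.5, 65.3 and 122 CPM in the control libraries.

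All 24 WRKY genes tested had lower values (22 of 24 at an unadjusted p under 0.05, median -1.56), and 16 did not overlap. WRKY33, which in A. thaliana switches on camalexin synthesis, overlapped in all 3 homeologues, with control replicate 2 the lowest control library. Csa05g014650 had 38.4, 21 and 25.3 CPM in the rolD::acdS line, against 73.1, 28 and 135 CPM in the control (log2 fold change -1.47 ± 0.54 (SE), adjusted p = 0.491), and the other homeologues Csa04g052260 and Csa06g041320 had log2 fold changes of -1.63 ± 0.57 and -1.41 ± 0.56 (SE). WRKY30 had the same order of control libraries. Csa08g018430 had 1.24, 0.0912 and 0.787 CPM in the rolD::acdS line, against 5.15, 1.33 and 14.6 CPM in the control (log2 fold change -3.15 ± 1.07 (SE), adjusted p = 0.463), Csa20g039360 was at -2.57 ± 0.98 (SE), and Csa13g028610, with 2 counts in the rolD::acdS line, was 48.8-fold lower (95% counting interval 13.2 to 408). WRKY53, a regulator of leaf senescence, did not overlap in either homeologue, at -1.38 ± 0.33 for Csa12g030620 and -1.16 ± 0.35 for Csa10g019250 (SE). WRKY70 (Csa04g042830), which acts in salicylate signalling, had 3.51, 4.11 and 4.72 CPM in the rolD::acdS line, against 8.81, 16.4 and 8.44 CPM in the control (log2 fold change -1.46 ± 0.40 (SE), adjusted p = 0.375), with control replicate 2 the highest.

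Of the NAC factors all 15 tested had lower values, 12 of 15 at an unadjusted p under 0.05, with a median of -1.11. NAC019 and NAC055 respond to abscisic acid, jasmonate and salt in A. thaliana. The NAC019 homeologue Csa03g060000 had 22.2, 10.2 and 19.8 CPM in the rolD::acdS line, against 56.6, 27.2 and 41.7 CPM in the control (log2 fold change -1.25 ± 0.31 (SE), adjusted p = 0.346), with no overlap. Its homeologues Csa14g063210 and Csa17g093080 were more abundant, overlapped with the control through control replicate 2, and had log2 fold changes of -0.87 ± 0.35 and -0.80 ± 0.34 (SE). NAC055 was at -1.35 ± 0.38 in Csa01g018090 and -0.98 ± 0.30 in Csa19g022270 (SE), the second with overlap. The C2H2 zinc fingers ZAT7 and ZAT12 respond to oxidative and salt stress. ZAT12 had 4.45, 2.83 and 3.05 CPM in the rolD::acdS line, against 9.75, 5.37 and 20.4 CPM in the control in Csa18g033110 (log2 fold change -1.76 ± 0.55 (SE), adjusted p = 0.435) and was at -1.42 ± 0.48 (SE) in Csa11g093680. The 3 ZAT7 homeologues Csa04g028800, Csa09g041170 and Csa06g019820 were at -2.59 ± 0.81, -2.13 ± 0.74 and -1.88 ± 0.61 (SE). All 5 ZAT genes lay below every control library. The RAV and TEM factors combine AP2 and B3 domains, and TEM1 represses flowering in A. thaliana. TEM1 had 1.67, 1.37 and 0.984 CPM in the rolD::acdS line, against 3.86, 3.85 and 5.82 CPM in the control in Csa14g032810 (log2 fold change -1.71 ± 0.38 (SE), adjusted p = 0.321) and -1.92 ± 0.52 (SE) in Csa03g029510, and RAV1 (Csa14g016230) was at -1.21 ± 0.33 (SE). None of the 5 RAV and TEM genes overlapped.

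Genes of the alternative respiratory pathway and its neighbours in the mitochondrion were lower in 13 of 13, all at an unadjusted p under 0.05 and 10 without overlap, with a median of -2.00. AOX1D, an alternative oxidase that passes electrons to oxygen without pumping protons, was the most abundant. Csa14g042300 had 16.3, 7.21 and 15.4 CPM in the rolD::acdS line, against 50.1, 20.7 and 94.8 CPM in the control (log2 fold change -2.08 ± 0.77 (SE), adjusted p = 0.501). Csa03g036700 and Csa17g051700 had log2 fold changes of -2.00 ± 0.85 and -1.61 ± 0.72 (SE) and overlapped at control replicate 2. AOX1B (Csa15g035960) was at -2.83 ± 1.16 (SE). OM66, an outer membrane protein induced by stress, had 2.95, 1.19 and 2.66 CPM in the rolD::acdS line, against 8.26, 5.81 and 20.7 CPM in the control in Csa06g025060 (log2 fold change -2.32 ± 0.70 (SE), adjusted p = 0.425) and -1.85 ± 0.57 (SE) in Csa04g036680. NDA1, an internal NAD(P)H dehydrogenase of the pathway, had a log2 fold change of -1.18 ± 0.40 (SE) in Csa03g010590. The summed level of the list was 87.6, 43 and 71.9 CPM in the rolD::acdS libraries, against 227, 97.8 and 414 CPM in the control libraries, so that control replicate 2 was near the rolD::acdS line and control replicate 3 far above it. Glutathione transferases, which conjugate toxic compounds, had 7 of 8 lower values, 5 of 8 at an unadjusted p under 0.05, but their summed level overlapped (34.9, 10.4 and 12.7 CPM in the rolD::acdS libraries, against 39.9, 16.2 and 40.4 CPM in the control libraries).

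Cell wall genes were lower in most members of 4 lists. The xyloglucan endotransglucosylase/hydrolases (XTH), which cut and rejoin the xyloglucan that tethers cellulose, had 24 of 25 lower values (22 of 25 at an unadjusted p under 0.05, median -1.66). XTH24 held the smallest p of the list. Csa10g012230 had 19.3, 9.22 and 9.06 CPM in the rolD::acdS line, against 41, 45.3 and 69 CPM in the control (log2 fold change -2.02 ± 0.33 (SE), adjusted p = 0.13). The more abundant homeologue Csa11g013140 had 85.2, 47 and 40.8 CPM in the rolD::acdS line, against 136, 102 and 192 CPM in the control (log2 fold change -1.31 ± 0.31 (SE), adjusted p = 0.33), and Csa12g016890 was at -1.32 ± 0.37 (SE). XTH4 was also abundant. Csa01g038400 had 50.6, 18.1 and 31.6 CPM in the rolD::acdS line, against 69.8, 63.5 and 129 CPM in the control (log2 fold change -1.38 ± 0.39 (SE), adjusted p = 0.395), and Csa19g040890 was at -1.09 ± 0.30 (SE). XTH15 was at -2.16 ± 0.44, -1.74 ± 0.38 and -1.73 ± 0.59 (SE) in Csa10g032600, Csa12g059980 and Csa11g040200. XTH16 was at -1.57 ± 0.54 and -1.55 ± 0.50 (SE) in Csa19g035430 and Csa15g046990. None of these 10 genes overlapped between the groups, and rolD::acdS replicate 1 was the highest of its group in each. Arabinogalactan proteins, glycoproteins of the cell surface, had 12 of 13 lower values (10 of 13 at an unadjusted p under 0.05, median -1.11). Pectin-modifying enzymes had 11 of 12 lower, 8 of 12 at an unadjusted p under 0.05, and 1 higher at that p. Extensins and expansins were mixed, with 8 of 11 lower, 5 of 11 at an unadjusted p under 0.05, and a summed level that overlapped.

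The hormone lists other than ethylene and salicylate were less uniform. All 7 ethylene synthesis and all 20 salicylate and pipecolate genes tested came from the study's list for the rolD::acdS line. That list held 7 of 16 auxin, 2 of 13 abscisic acid and 1 of 9 jasmonate genes, and no glucosinolate gene. Of those 7 auxin genes 6 were lower at an unadjusted p under 0.05 (edgeR quasi-likelihood), and none of the other 9 was. The difference in uniformity cannot be told apart from this choice. In the auxin list 10 of 16 had lower values, 6 at an unadjusted p under 0.05, and 2 were higher at that p. The median was -0.29, and -0.66 to -0.03 when a library was left out. IAA6, an auxin-responsive repressor, was nearly at 0 in the rolD::acdS line. Csa17g093020 had 0.214, 0.0912 and 0.0984 CPM in the rolD::acdS line, against 0.813, 1.45 and 0.956 CPM in the control (log2 fold change -2.74 ± 0.49 (SE), adjusted p = 0.18), and Csa03g059950 was at -1.97 ± 0.56 (SE). Neither homeologue overlapped between the groups, and control replicate 2 was the highest library of both. CKX3, a cytokinin oxidase that breaks cytokinin down, had no count in the rolD::acdS line for Csa11g090460, against 0.406, 0.695 and 0.623 CPM in the control, at least 8.68-fold lower. A second CKX3 gene, Csa02g061320, was too low to test, at 0, 0 and 1 counts in the rolD::acdS line and 6, 5 and 21 in the control. CRF6 (Csa05g093720), a cytokinin response factor, had 5.77, 3.74 and 8.17 CPM in the rolD::acdS line, against 12.8, 8.71 and 13.3 CPM in the control (log2 fold change -0.98 ± 0.38 (SE), adjusted p = 0.52). Abscisic acid genes had lower values in 13 of 13, 5 of 13 at an unadjusted p under 0.05, with a median of -0.81. Jasmonate genes were split, 5 lower and 4 higher, with 1 in each direction at an unadjusted p under 0.05 and a median of -0.07, which was -0.36 to 0.11 when a library was left out. No glucosinolate gene reached that p (8 of 8 lower, median -0.44).

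Desiccation genes and photosynthesis genes did not follow the defence lists, but their members were chosen differently. All 20 salicylate and pipecolate genes tested came from the study's list for the rolD::acdS line. Only 4 of the 19 desiccation genes and none of the 4 photosynthesis genes did. Those 4 desiccation genes were lower at an unadjusted p under 0.05 (edgeR quasi-likelihood), and none of the other 15 was. The contrast between lists cannot be told apart from this choice. Of 19 late embryogenesis abundant (LEA) and desiccation genes, which protect cells that lose water, 15 had lower values but only 4 of 19 did so at an unadjusted p under 0.05. The median was -0.19, and -0.39 to 0.05 when a library was left out. Of the 4 genes that did, 3 were homeologues of SAG21, a LEA-like gene of senescence. Csa08g052090 had 1.63, 1.73 and 1.57 CPM in the rolD::acdS line, against 3.59, 3.6 and 4.99 CPM in the control (log2 fold change -1.31 ± 0.46 (SE), adjusted p = 0.477), and Csa02g005610 and Csa13g054850 were at -1.47 ± 0.52 and -1.08 ± 0.37 (SE). RAB18, the abundant dehydrin gene, summed over 3 homeologues to between 1152 and 1740 CPM in the rolD::acdS line and between 1368 and 1926 CPM in the control. The yellow-leaf-specific genes YLS5 (Csa05g014450) and YLS9 (Csa05g018120) were at -1.97 ± 0.75 and -1.43 ± 0.71 (SE), the second with an unadjusted p of 0.0649. All 4 photosynthesis genes had higher means in the rolD::acdS line than in the control. The study drew them from its list for the 8R6 treatment, set against these same control libraries. Their direction is therefore not independent evidence. Against the 8R6-treated plants all 4 were lower in the rolD::acdS line at an unadjusted p under 0.05 (edgeR quasi-likelihood), with a median log2 fold change of -0.97. PSAD1, a subunit of photosystem I, had 35.8, 49.6 and 43.2 CPM in the rolD::acdS line, against 27.5, 32 and 31 CPM in the control in Csa08g050560 (log2 fold change 0.50 ± 0.13 (SE), adjusted p = 0.346). The light-harvesting gene of Csa06g036870 had 11.5, 10.2 and 13.6 CPM in the rolD::acdS line, against 7.04, 8.65 and 10.1 CPM in the control, at 0.44 ± 0.24 (SE). The gene for a PsbQ-like protein (Csa01g001010) was at 0.86 ± 0.41 (SE). CAB1 (Csa14g037480) overlapped, at 7.06, 12.6 and 10.3 CPM in the rolD::acdS line, against 3.52, 3.85 and 10.8 CPM in the control. Only PSAD1 had an unadjusted p under 0.05. The part of these markers in the other results was not tested.

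The list of protein degradation, largely F-box and RING-type ubiquitin ligase genes, was the longest and ran in both directions. Of 67 genes tested 57 had lower values, 46 of 67 at an unadjusted p under 0.05, and 7 were higher at that p. The median was -1.39 and the range -6.68 to 2.23. Csa20g039250 and Csa07g027960, described above, belong to it.

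Over all 28 lists, 391 genes were tested, 353 had lower values and 274 were lower at an unadjusted p under 0.05, with a median log2 fold change of -1.42. Of these, 283 stood in the study's list for the rolD::acdS line, and 255 of them were lower at that p (median -1.76), a direction that the choice of members largely fixes. The other 108 were not read from that list, and some may stand in rows of it that were not read here. Most came from its lists for the 35S::acdS line or the 8R6 treatment, which share the control libraries with this comparison. The PR1 gene Csa15g064830, the lowest of the 108 (log2 fold change -3.74), came only from the study's text. That text names it for a reduced level in this same line, so the 108 are not free of such a choice. In these 108, 79 had lower values, 19 were lower and 4 higher at an unadjusted p under 0.05, and the median was -0.31. Over all 528 genes tested that were read only from the lists for 35S::acdS or 8R6, 100 (18.9%) were lower at that p, against 5.07% of all genes. The medians of the 28 lists were the same when genes with 0 to 3 counts in the rolD::acdS line were set at their bound or counted ratio. The medians of the LEA and jasmonate lists crossed 0 when a library was left out, and that of the jasmonate list also in limma (0.02). No other list median changed sign under any alternative.

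**Figure D3:**
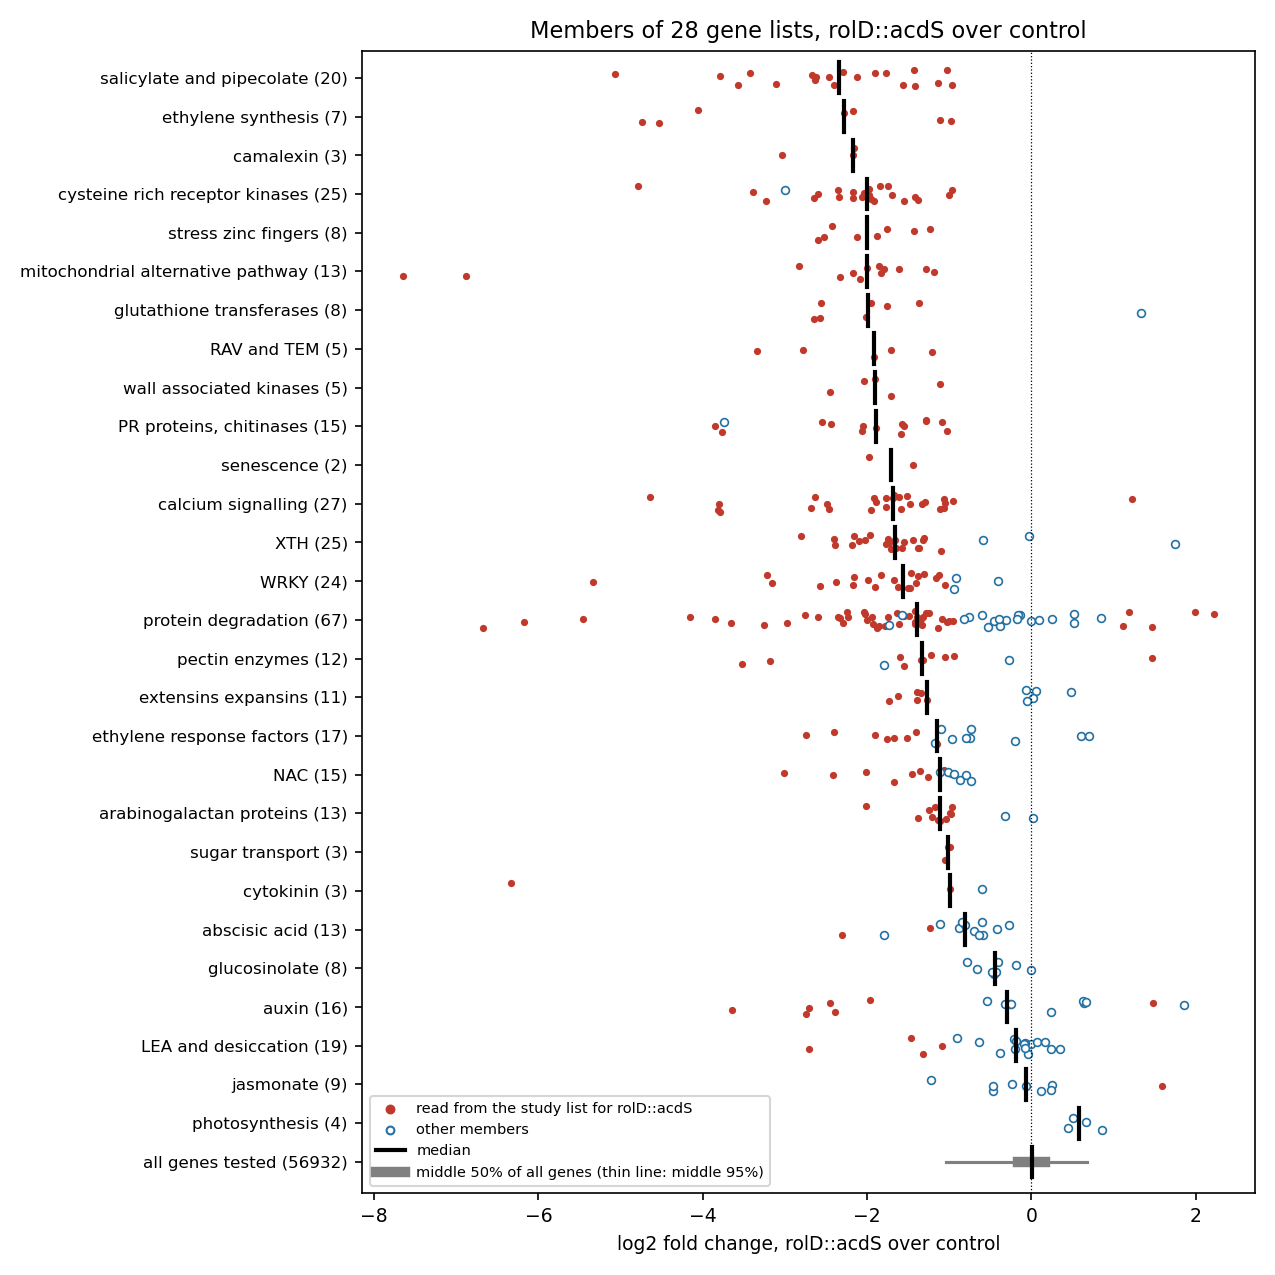
Log2 fold change of the rolD::acdS line over the control (x axis) for each tested member of the 28 gene lists (rows, number tested in brackets), with the median as a black bar. Red points were read from the study's list for the rolD::acdS line and open points from its other lists or only from its text. The lowest row gives all 56932 genes, whose middle 95% ran from -1.04 to 0.68, and 27 lists have a median below 0 and 1, photosynthesis, a median above 0. Genes with 0 to 3 counts in a group are drawn at their fitted value.

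Summed per list, the level in all 3 rolD::acdS libraries lay below all 3 control libraries in 19 lists, above them in 1 (photosynthesis) and overlapped in 8. The libraries were not alike within the groups. Among the 1064 genes that were more than 2-fold lower at an unadjusted p under 0.05, control replicate 3 was the highest control library in 717 (67.4%) and control replicate 2 the lowest in 621 (58.4%). In the rolD::acdS line replicate 1 was the highest in 643 (60.4%) and replicate 2 the lowest in 594 (55.8%). The median level of these genes was 0.770, 0.456 and 0.591 CPM in the rolD::acdS libraries, against 1.96, 1.70 and 3.12 CPM in the control libraries. The number of such genes was 716 without control replicate 3 and 750 without rolD::acdS replicate 2, and 1482 without rolD::acdS replicate 1. What set the libraries of a group apart was not tested.

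**Figure D4:**
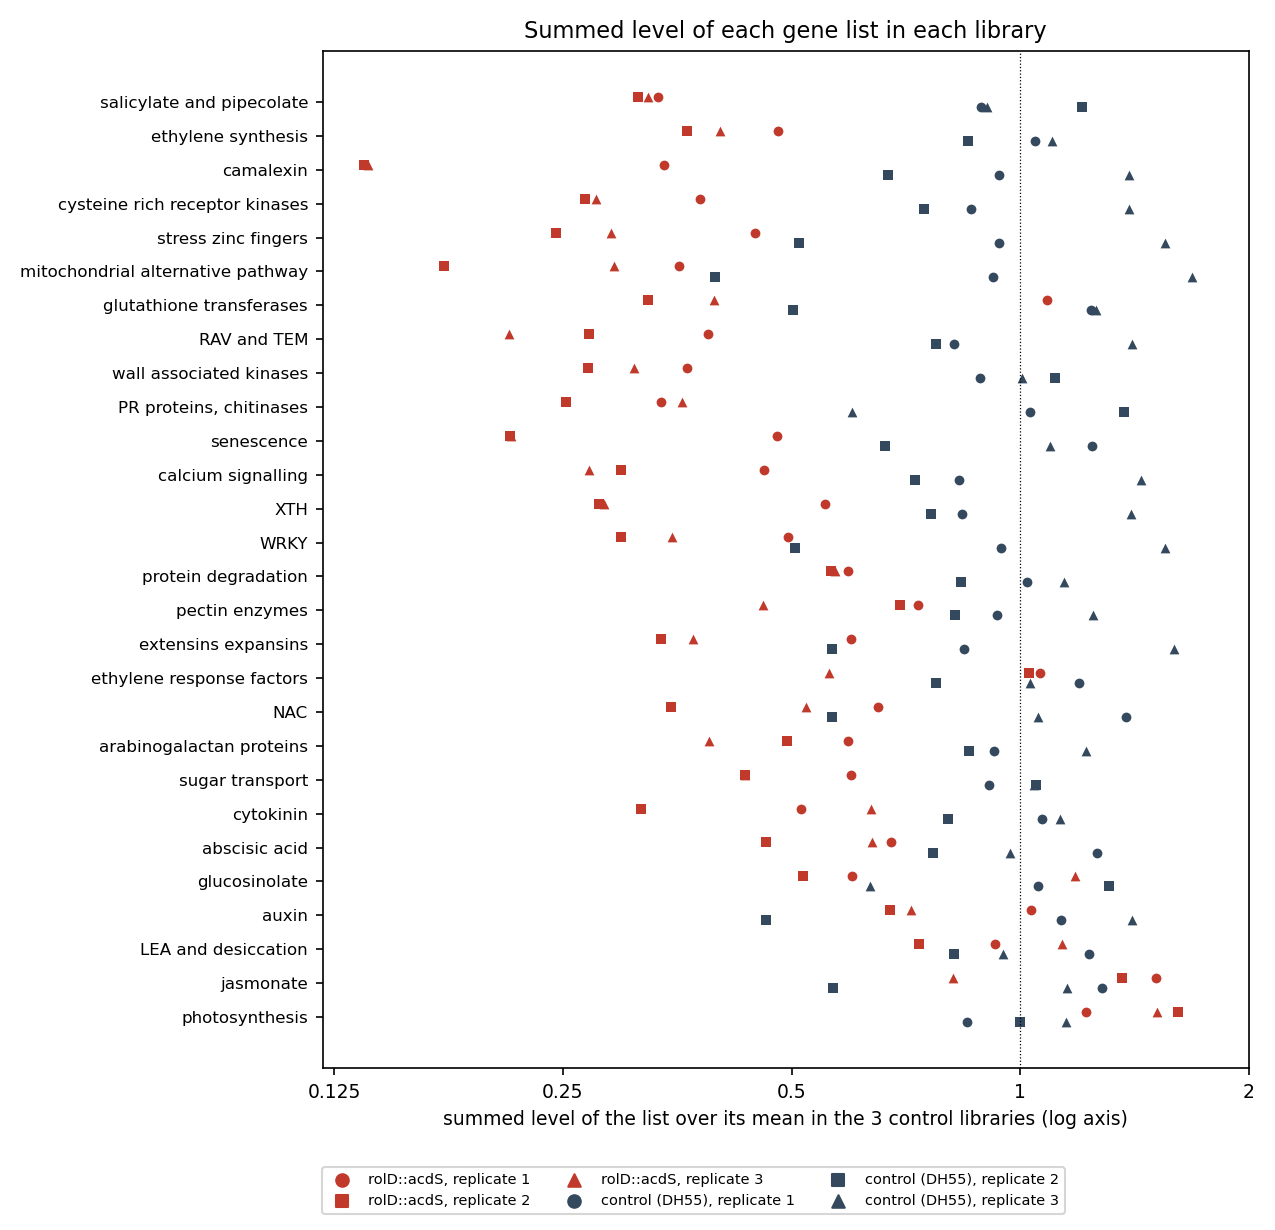
Summed level of each list's tested genes in each library, divided by its mean over the 3 control libraries (log axis). Red symbols are rolD::acdS libraries, dark symbols control libraries, and the shape gives the replicate number. In 19 rows every red symbol lies left of every dark one. Control replicate 2 (square) is the dark symbol nearest to the red ones in most transcription factor rows, while in the salicylate row it is the highest.

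Against the 35S::acdS line, in which acdS stands behind a constitutive promoter, no gene passed the threshold (edgeR quasi-likelihood, smallest adjusted p = 0.285). At an unadjusted p under 0.05 and more than 2-fold, 625 genes (1.10%) were lower and 669 (1.18%) higher in the rolD::acdS line, beside 6.08% lower and 6.78% higher at that p without regard to fold, and DESeq2 called 107, limma 1. The 7 ethylene synthesis genes had a median log2 fold change of -1.28 in this direct comparison, and 2 were lower at an unadjusted p under 0.05. Of 13 arabinogalactan protein genes 11 were lower at that p, and of 25 XTH genes 13, beside 6.08% of all genes tested. The medians of these lists were -1.33 and -1.09, and most of their members were read from the list for the rolD::acdS line. For the 20 salicylate and pipecolate genes the median was -1.07, with 1 lower at that p.

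Against the 8R6-treated plants, 43 genes (0.0755%) passed the threshold, 8 lower and 35 higher in the rolD::acdS line. At an unadjusted p under 0.05, 6.37% of all genes were lower and 6.18% higher, and 1.36% were more than 2-fold lower and 1.36% more than 2-fold higher. The genes named here were chosen after their values were seen. Csa04g008480 and Csa09g005240, homeologues of ribonuclease 1, a secreted RNase of phosphate starvation and wounding, were higher in the rolD::acdS line. Csa04g008480 had 55, 52.6 and 18.1 CPM in the rolD::acdS line, against 4.89, 6.13 and 6.81 CPM in the 8R6-treated plants (log2 fold change 2.83 ± 0.37 (SE), adjusted p = 0.0429), and 21.6, 17.8 and 20.7 CPM in the control. The RAP2.6 homeologue Csa03g046520 had 85.3, 100.1 and 32.8 CPM in the rolD::acdS line, against 15.2, 7.87 and 13.6 CPM in the 8R6-treated plants (log2 fold change 2.57 ± 0.37 (SE), adjusted p = 0.0429). In the control it had 53.1, 36.3 and 53.8 CPM. The MATE efflux gene Csa18g022950 had 4.92, 8.67 and 3.25 CPM in the rolD::acdS line, against 0.814, 0.452 and 0.487 CPM in the 8R6-treated plants (log2 fold change 3.21 ± 0.51 (SE), adjusted p = 0.0468). In the control it had 2.64, 1.14 and 1.66 CPM. The cold regulated gene 27 homeologues Csa11g072120 and Csa20g066690 were higher by log2 fold changes of 1.70 and 1.39, and the homeobox 7 gene Csa05g002480 by 1.11. Against the control, these genes had log2 fold changes of 0.59, 0.14 and 0.018 in the rolD::acdS line. Csa05g002480 averaged 73.6 CPM in the rolD::acdS line, 72.7 CPM in the control and 34.1 CPM in the 8R6-treated plants. Fumarase 2 (Csa02g041670), a cytosolic enzyme of malate and fumarate metabolism, had 7.19, 3.83 and 2.07 CPM in the rolD::acdS line, against 24.4, 44 and 44.1 CPM in the 8R6-treated plants (log2 fold change -3.01 ± 0.48 (SE), adjusted p = 0.0468). In the control it had 10.9, 8.78 and 17.2 CPM. Most LEA and desiccation genes were higher here, as were most jasmonate genes, which are given under other observations. The LEA and desiccation list had a median of 2.03. Of its members, 15 of 19 were higher at an unadjusted p under 0.05, beside 6.18% of all genes tested. The study drew 15 of the 19 members from its lists for the other groups, so this count is not independent evidence either. Its summed level was 1694, 1345 and 2076 CPM in the rolD::acdS line, against 843, 678 and 516 CPM in the 8R6-treated plants. In the control it was 2251, 1496 and 1738 CPM. The 43 calls were not stable to the choice of libraries, since their number was 0 without rolD::acdS replicate 2, without 8R6 replicate 2 or without 8R6 replicate 3, and 4 without 8R6 replicate 1. It was 40 without rolD::acdS replicate 1 and 66 without rolD::acdS replicate 3.

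By chromosome, the share of genes that were more than 2-fold lower at an unadjusted p under 0.05 ran between 1.32% (chromosome 4, 95% Wilson interval 0.957 to 1.83%) and 2.32% (chromosome 12, 1.81 to 2.99%), beside 1.87% overall. The share that was higher was largest on chromosome 4 among the 20 numbered chromosomes (0.625%, 0.390 to 0.998%). Of the 17 higher genes there, 11 lay in the run from Csa04g058080 to Csa04g068180, and outside it the share on chromosome 4 was 0.263%.

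The run was found while the chromosomes were scanned, and its limits were set after its values were seen. Its first stretch, Csa04g058080 to Csa04g065890, held 342 genes tested, of which 254 averaged at least 2 CPM. Each gene's level was divided by its mean over 7 libraries, those of the rolD::acdS and 35S::acdS lines and control replicate 1. The median relative level of the 254 genes was 0.985, 0.996 and 0.986 in the rolD::acdS libraries, which are part of that mean, against 0.988, 0.0237 and 0.501 in the control libraries. It was 0.520, 0.0312 and 0.515 in the 8R6-treated plants. In control replicate 2, 250 of the 254 genes lay below 0.25, and in control replicate 3, 243 lay between 0.25 and 0.75. The edge was sharp. Csa04g058040, just before the run, had 5.35, 6.39 and 5.02 CPM in the rolD::acdS line, against 4.06, 4.42 and 3.86 CPM in the control, whereas Csa04g058090 had 27.1, 27.3 and 25.3 CPM in the rolD::acdS line, against 26.2, 0.0631 and 15.7 CPM in the control. The abundant Csa04g061240 had 660.5, 672 and 1157 CPM in the rolD::acdS line, against 637, 0.947 and 221 CPM in the control. In the second stretch, Csa04g065900 to Csa04g068180 (101 genes tested), the median relative level was 0.954, 0.965 and 0.966 in the rolD::acdS line and 0.991, 0.494 and 0.781 in the control.

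The run touched the comparison with the control in its higher genes. In the first stretch 150 of 342 genes were more than 2-fold higher in the rolD::acdS line, with a median log2 fold change of 0.95, but only 13 had an unadjusted p under 0.05. Control replicate 1 lay with the rolD::acdS libraries. Without the run, 225 genes instead of 236 were more than 2-fold higher at that p and 1062 instead of 1064 lower. No gene of the run was among the 43 called against the 8R6-treated plants, and no list gene that was lower at an unadjusted p under 0.05 lay in it. What distinguishes these 5 libraries was not tested.

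**Figure D5:**
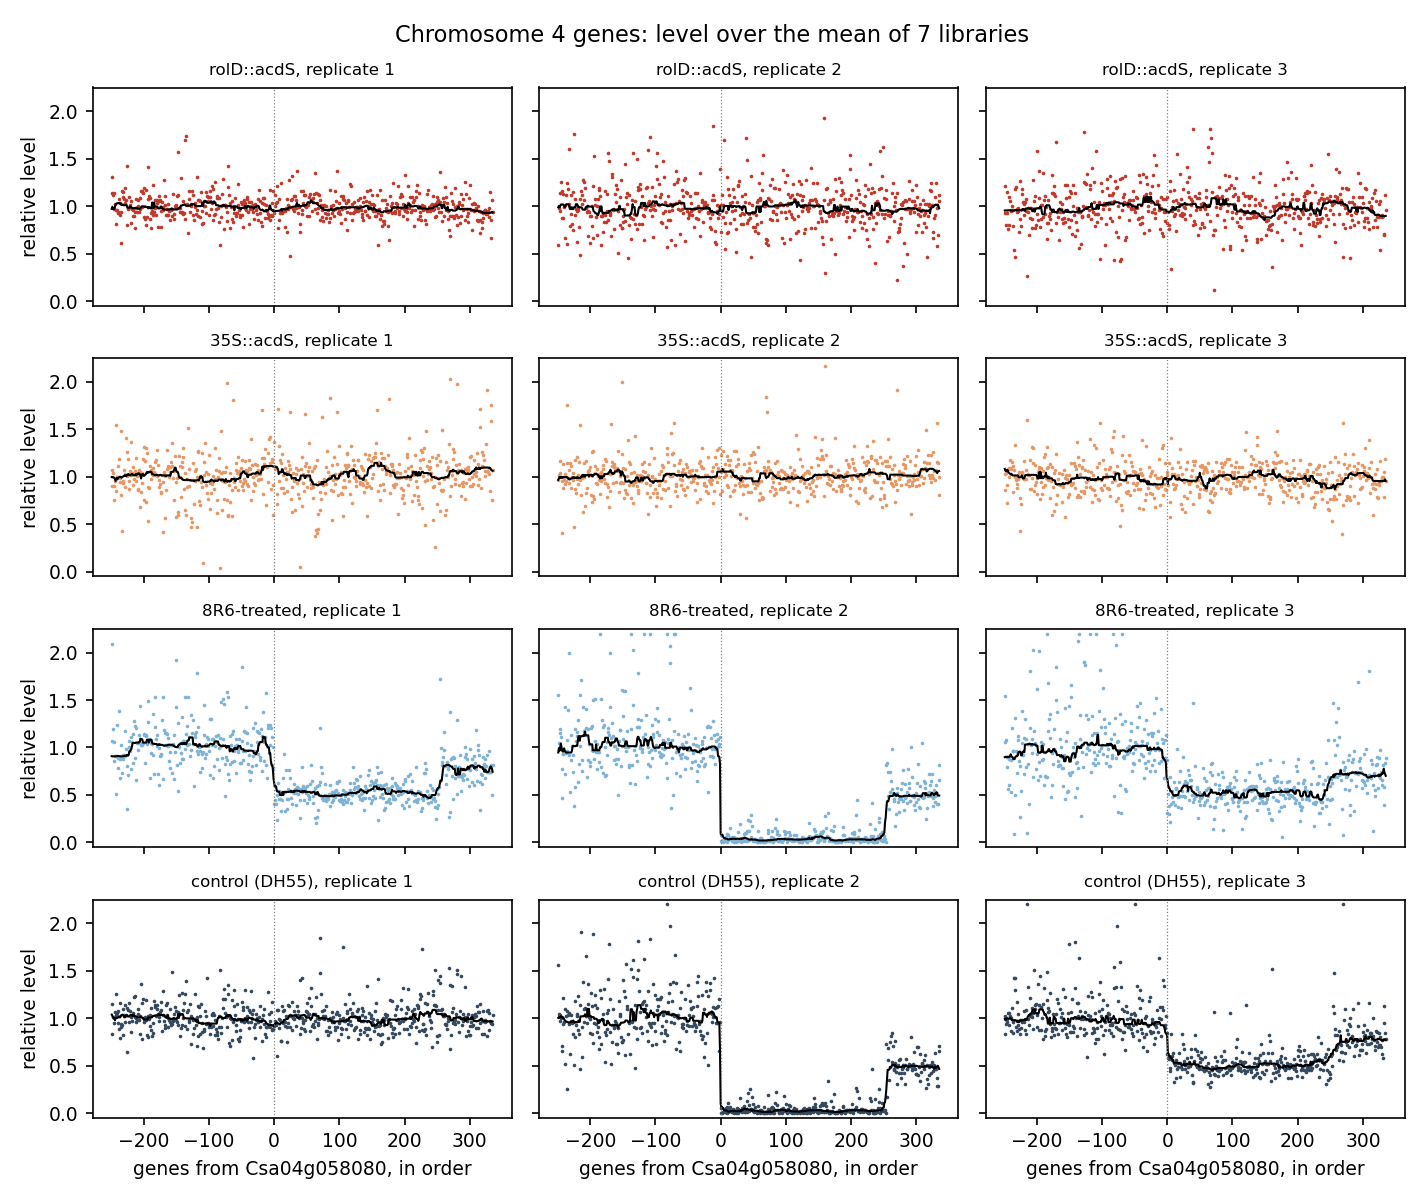
Level of each chromosome 4 gene of at least 2 CPM, divided by its mean over 7 libraries (the rolD::acdS and 35S::acdS lines and control replicate 1), against its place in gene order counted from Csa04g058080 (dotted line). The black line is the running median of 25 genes, and values above 2.2 are drawn at 2.2. The rolD::acdS panels stay near 1 across the line. Control replicate 2 and 8R6 replicate 2 drop to near 0 there, and control replicate 3 and 8R6 replicates 1 and 3 to near 0.5.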

How the data were processed

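Shoot poly(A) RNA of 4 groups of 3 biological replicates was sequenced by the authors with a stranded kit. The submitters' processing notes name Trimmomatic, STAR, DESeq and edgeR without versions, and how reads that match several homeologues were counted is not given in the sources used here. The deposited table holds raw counts per gene, whole numbers that differ in their totals between libraries, although its title speaks of CPM. Reads were mapped to the NCBI C. sativa reference genome per the methods, and 0 of 89418 identifiers matched the reference gene table at hand, so no coordinates or sequences are given. Names and A. thaliana orthologs came from the study's supplementary gene lists (1231 genes), and 696 of them came from the one for the rolD::acdS line, which was read in shortened form. Its values and the authors' fold changes were not used.

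Genes with at least 0.5 CPM in 3 of 12 libraries were kept. Counts were fitted with edgeR 4.0.16 (TMM, quasi-likelihood F test, 4 groups in one model), p-values were adjusted by Benjamini-Hochberg over all genes tested, and genes with an adjusted p up to 0.05 that differed more than 2-fold were called. CPM values are TMM-normalised. Alternatives were DESeq2, RLE factors, library totals, other filters (none, or 1 CPM in 6 libraries), the 6 libraries compared, a replicate block, limma on log2(CPM + 0.5), edgeR's exact test with a biological coefficient of variation of 0.2 or gene-wise dispersions, and each library left out. The fit was tested on simulated data. Named genes were the leads of the lists, the 10 largest lower and higher differences (unadjusted p under 0.05, no overlap, at least 1 CPM in the higher group), the 10 smallest p, and genes passing with a library left out. Members, lists and rules were chosen with earlier results of these data known.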

Additional observations from a re-analysis of the deposited data

Results flagged for a closer look

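The difference between the rolD::acdS line and the 8R6-treated plants, both set against the same control libraries, was itself tested, and 43 genes passed (edgeR quasi-likelihood, adjusted p of 0.05 or less and more than 2-fold). Among them Csa20g056010 had 1.63, 2.01 and 1.87 CPM in the rolD::acdS line, against 0, 0 and 0.0487 CPM in the 8R6-treated plants, and the B3 factor gene Csa12g014370 had 0.941, 2.28 and 1.08 CPM in the rolD::acdS line, against 0.0429, 0.194 and 0.195 CPM in the 8R6-treated plants. With 3 libraries a group, single libraries were not tested as outliers.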

How the results depend on the processing

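None of the 124 named genes tested changed direction under any of 17 alternatives, and 231 of 2080 single values newly passed the threshold, 111 of them in the exact test with a biological coefficient of variation (BCV) of 0.2, 70 in that with gene-wise dispersions and 42 in DESeq2. Of 476 list medians 35 moved by more than the spread between replicates, 12 of them without rolD::acdS replicate 1 and 10 without control replicate 3. Against the control, calls were 0 in the main test and 0 with RLE factors, library totals, no filter, the stricter filter and without the chromosome 4 run (an alternative added after seeing the data). They were 164 in DESeq2, 1354 in the exact test with BCV 0.2, 379 with gene-wise dispersions, 1 in limma, 3 with only the 6 libraries compared, and 0 to 5 with a library left out. The genes more than 2-fold lower at an unadjusted p under 0.05 numbered 1064, 639 in limma, 1624 without a filter, 599 with the stricter filter and 716 to 1482 with a library left out. The higher ones numbered 236, 439 with BCV 0.2, 100 in limma, 498 without a filter, 94 with the stricter filter and 157 to 416 with a library left out. List genes lower at an unadjusted p under 0.05 numbered 274, and 187 to 311 over all alternatives. The highest share of lower genes on a chromosome was 2.32%, 3.22% with BCV 0.2, 1.46% in limma, 1.53% with the stricter filter and 1.73 to 3.07% with a library left out.

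Against 35S::acdS, calls were 0, 107 in DESeq2, 1370 with BCV 0.2, 241 with gene-wise dispersions, 1 in limma, 15 with only the 6 libraries compared and 0 to 1 with a library left out. Against 8R6 they were 43, 474 in DESeq2, 1752 with BCV 0.2, 655 with gene-wise dispersions, 73 with library totals, 147 without a filter, 22 with only the 6 libraries compared and 0 to 66 with a library left out. What sets the tests apart was not tested.

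The labels do not say what samples with the same replicate number share beyond that number. Between rolD::acdS and the control, their deviations correlated at -0.13 to 0.13, with 2 of 3 pairs above 0.1. The range was 0.05 to 0.30 between rolD::acdS and 8R6. Over all groups it was -0.35 to 0.30, with 9 of 18 pairs above 0.1. The replicate block is given as an alternative and not as a paired analysis. With the replicate block, calls were 0 against the control, 0 against 35S::acdS and 47 against 8R6, and 1100 genes were more than 2-fold lower and 269 higher at an unadjusted p under 0.05.

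The rolD::acdS replicates 2 and 3 were the shallowest libraries of the comparison, and levels below the floor of 3 counts are not resolved. Sharing of reads between homeologues was not tested, and the line is 1 insertion.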

Other observations

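Many jasmonate and abscisic acid genes stood higher in the rolD::acdS line than in the 8R6-treated plants. Of 9 jasmonate genes, which make or modify the hormone, 8 were higher at an unadjusted p under 0.05 (edgeR quasi-likelihood, 6.18% of all genes tested), with a median log2 fold change of 1.40. Of 13 abscisic acid genes, 6 were higher at that p, with a median of 0.70. Against the control the medians were -0.07 for jasmonate and -0.81 for abscisic acid. The summed jasmonate level was 75.7 to 116 CPM in the 8R6-treated plants, 192 to 355 CPM in the rolD::acdS line and 133 to 301 CPM in the control. The study drew 8 of the 9 jasmonate genes from its lists for the other groups. Of the 13 abscisic acid genes, 11 were not read from its list for the rolD::acdS line, and the 6 higher ones were among these. The counts are therefore a description.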
